A study of Rattus norvegicus with 15 samples.

Results

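Transcript levels of 4 genes, Sp1, Hif1a, Vegfa and Myc, were followed in rat brain after bleeding and after bleeding with a drug that binds GC-rich DNA. They were taken by Ensembl gene ID (Sp1 ENSRNOG00000014084, Hif1a ENSRNOG00000008292, Vegfa ENSRNOG00000019598, Myc ENSRNOG00000004500) as genes tied to Sp1 and GC-rich promoters, and all 4 were present among the 15094 genes of the count table. The table carries IDs alone, so the symbols come from the list that named the genes and could not be checked against a second table. Tissue was taken from Sprague-Dawley rats 72 h after modelling, with the brain as source and basal ganglia cells as the labelled cell type. The Sham group had a sham operation (5 libraries), and the ICH group had intracerebral hemorrhage (3 libraries, replicates 1, 2 and 5). The ICH_MA group had the hemorrhage and received mithramycin A (3 libraries, replicates 1, 2 and 3). The count table used here has columns for these 11 of the 15 labelled samples, and the sources do not say how they were chosen. The other 4 were not analysed here. The sources used here do not give the way the bleeding was induced, the drug's dose, route and timing, or the rats' age and sex. The labels give no separate vehicle group, so the ICH rats are the comparison for the drug.

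Sp1 is a zinc finger transcription factor that binds GC boxes, short G- and C-rich stretches found in many promoters. Mithramycin A is an antibiotic that sits in the minor groove of GC-rich DNA and displaces Sp1 from it, so it is used as an inhibitor of Sp1-dependent transcription. Hif1a encodes the oxygen-regulated subunit of hypoxia-inducible factor, whose amount is set largely by protein breakdown. Vegfa encodes a secreted growth factor that drives vessel growth and raises vessel permeability, and it is a classical target of both factors. Myc encodes a transcription factor of growth and proliferation, and its promoter is a known site of mithramycin action in cultured cells. RNA sequencing measures the transcripts of these genes and not the binding of Sp1 to DNA. In tissue RNA, fewer cells of a type and less RNA per cell cannot be told apart.

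Promoter windows were read from RefSeq sequence on build GRCr8 for 3 of the 4 genes, each with 250 bases before a transcript start and 50 after it. Myc had no window in the sequences used, so the GC content of its promoter could not be described. The 250 bases before the start are shown because GC-rich DNA is what the drug binds. All are on the plus strand, written 5′ to 3′, and capitals mark the core GC-box letters GGGCGG or its reverse complement CCGCCC.
Sp1, chr7:135419800-135420049: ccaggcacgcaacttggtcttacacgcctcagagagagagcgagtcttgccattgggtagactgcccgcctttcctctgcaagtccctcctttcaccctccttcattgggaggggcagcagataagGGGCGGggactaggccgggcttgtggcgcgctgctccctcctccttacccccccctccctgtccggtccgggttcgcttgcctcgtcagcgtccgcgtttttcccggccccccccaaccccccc
Vegfa, chr9:22452604-22452853: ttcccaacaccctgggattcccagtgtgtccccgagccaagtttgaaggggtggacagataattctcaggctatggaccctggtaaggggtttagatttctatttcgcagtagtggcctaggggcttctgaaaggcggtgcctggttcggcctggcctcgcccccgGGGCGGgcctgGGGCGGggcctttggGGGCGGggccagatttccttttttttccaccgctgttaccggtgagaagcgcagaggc
Hif1a, chr6:98359648-98359897: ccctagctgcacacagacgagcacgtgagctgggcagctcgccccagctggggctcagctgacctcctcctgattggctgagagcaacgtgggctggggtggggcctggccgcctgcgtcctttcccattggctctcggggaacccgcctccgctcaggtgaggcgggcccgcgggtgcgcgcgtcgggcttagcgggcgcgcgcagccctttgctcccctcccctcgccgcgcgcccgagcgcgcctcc
The Sp1 sequence holds 1 core match, which begins at position −124 from the start and lies within the longer letters GGGGCGGGG. The Vegfa sequence holds 3 core matches, beginning at positions −84, −73 and −58 and all on the printed strand, and 2 of them lie within the longer letters. The Hif1a sequence holds none wholly before the start, and the 2 core matches of its whole window reach into the 50 bases after it. A second RefSeq window of Vegfa, at chr9:22460028-22460277 for the part before its start, holds no match. Transcript starts differ within a gene: the Sp1 and Hif1a windows belong to starts 186 and 2110 bases downstream of the first annotated base of the gene, and the windows of Vegfa to starts 0 and 7424 bases downstream.

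Against 33469 windows of 27457 rat genes, the windows of Sp1, Hif1a and the first of Vegfa were rich in G and C. The windows compared were not limited to genes of the count table, so the shares do not describe genes expressed in this tissue. GC content over the 300 bases was 65.7% for Sp1, 73.7% for Hif1a, and 63.3% and 57.3% for the windows of Vegfa, where the median of all windows was 51.7% and the middle 50% lay between 44.7% and 60.3%. A GC content as high or higher was found in 14.9% of all windows for Sp1, 4.27% for Hif1a, and 19.2% and 33.1% for Vegfa. The core letters, searched on both strands with overlaps counted, stood in 33.1% of all windows, and 2 or more times in 17.0%. The longer letters stood in 9.73%. A match is a run of letters and not evidence that Sp1 is bound there.

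**Figure D1:**
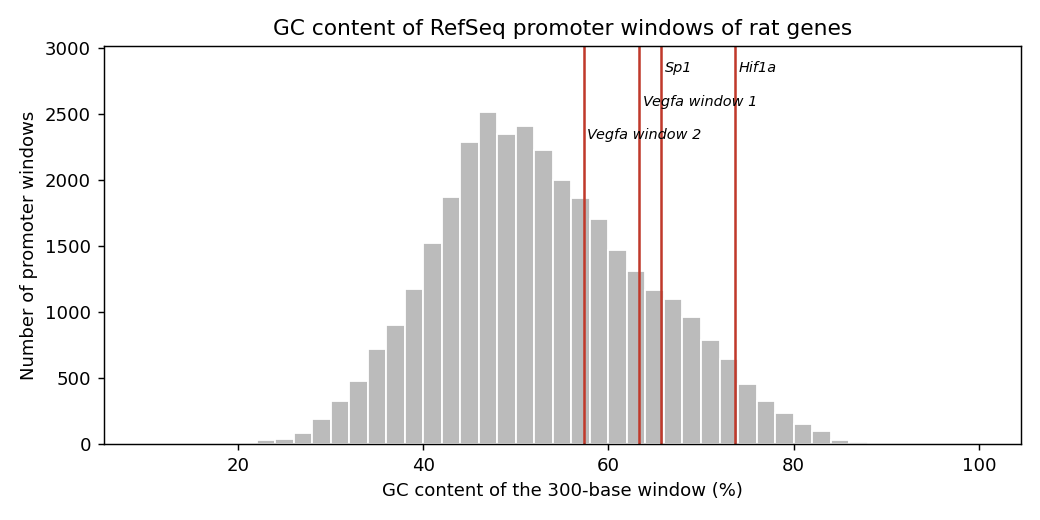
Histogram of GC content in percent (x axis) over 33469 RefSeq promoter windows of 300 bases (y axis, number of windows), with red lines at the windows of Sp1, Vegfa and Hif1a. The lines lie at 57.3% to 73.7%, all to the right of the median of 51.7%.

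The 11 libraries held between 56393423 and 67733469 counts each. Levels are given as CPM, counts scaled to a common library total with TMM factors, and they are compared between groups of 1 gene and not between genes, since they are not scaled by length. Of the ICH libraries, replicate 5 had the value closest to the Sham mean for all 4 genes described here, and results that rest on it are given with and without it. It was singled out by these same values, so leaving it out had to enlarge the differences between ICH and Sham. Calls gained without it are therefore given as a measure of dependence on 1 library and not as support. The labelled tissue could not be checked against markers of brain cell types because the IDs carry no names. The study design gives 5 rats per group, but the labels do not tie each library to a rat. The p-values therefore set group differences against the spread between these samples.

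The first comparison asked what hemorrhage changed. Myc rose most of the 4 genes, 2.70-fold, and Hif1a rose 1.15-fold, while the values for Sp1 (1.24-fold) and Vegfa (0.906-fold) did not pass the test. Thus 2 of 4 genes were called changed, both higher, where 24.5% of the 14963 genes tested were called in either direction and 15% were called higher (edgeR quasi-likelihood F test, Benjamini-Hochberg adjusted p under 0.05, 3 against 5 libraries). For these 2 genes every ICH library was above every Sham library, as was so for 15.2% of all genes tested. With 4 genes, these counts are read as a description. The median log2 fold change of the 4 was 0.26, against 0.00393 over all genes tested. The 4 did not move together, with values from −0.14 for Vegfa to 1.43 for Myc. The median over all genes depends on the scaling and was 0.056 with library totals alone.

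**Figure D2:**
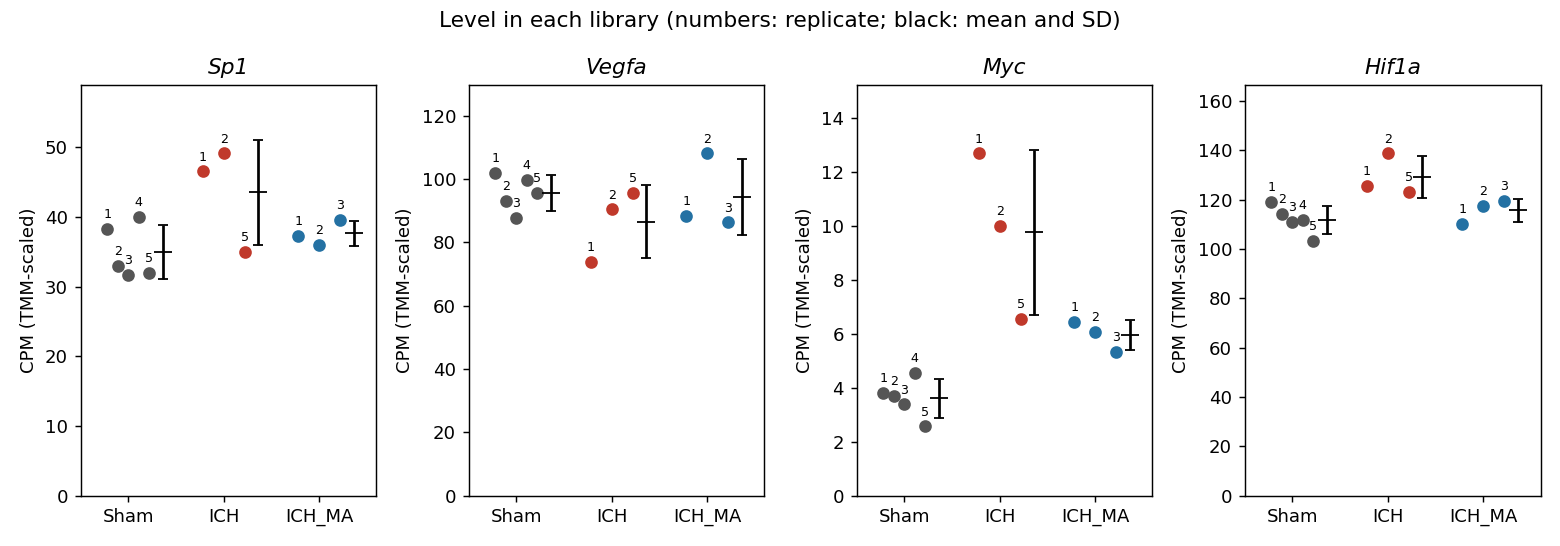
CPM (y axis, from 0, linear) of each gene in each of the 11 libraries, by group (x axis), with the replicate number above each point and the mean and SD in black. All ICH and ICH_MA libraries lie above all Sham libraries for Myc, and ICH replicate 5 lies within the Sham range for Sp1 and Vegfa and, at 6.57 CPM, close above the ICH_MA points for Myc.

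Sp1 itself was at 38.2, 33.0, 31.6, 39.96 and 32.0 CPM in Sham replicates 1 to 5. It was at 46.5, 49.1 and 34.9 CPM in ICH replicates 1, 2 and 5. Replicates 1 and 2 of ICH stood above every Sham library, and replicate 5 stood within the Sham range. The means were 35.0 ± 3.86 CPM in Sham (SD, n = 5) and 43.5 ± 7.55 CPM in ICH (SD, n = 3). The log2 difference of 0.32 (SE 0.11, 95% interval 0.067 to 0.57) did not pass after adjustment (edgeR adjusted p = 0.0637, unadjusted p = 0.0175). Without ICH replicate 5 the log2 fold change was 0.45 and passed (edgeR adjusted p = 0.00571), a fit in which 29.9% of genes were called. Leaving out the ICH library nearest to Sham had to enlarge this difference. Sp1 also passed with library totals in place of TMM, at 0.37 (edgeR adjusted p = 0.0445), where 24.1% of genes were called. In that fit the median log2 fold change over all genes was higher too, at 0.056. Over the 18 alternatives the adjusted p ranged from 0.00571 to 0.249.

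Hif1a was at 119, 114, 111, 112 and 103 CPM in Sham replicates 1 to 5. In ICH replicates 1, 2 and 5 it was at 126, 139 and 123 CPM. Every ICH library was above every Sham library, but the lowest ICH value of 123.1 lay close to the highest Sham value of 119.1. The means were 112 ± 5.69 CPM in Sham (SD, n = 5) and 129 ± 8.46 CPM in ICH (SD, n = 3). The rise came to 0.21 on the log2 scale (SE 0.058, 95% interval 0.080 to 0.33, edgeR adjusted p = 0.0241). A rise as large or larger was found in 25.3% of the genes tested, so the size of this change was common in the tissue. The call was lost without Sham replicate 3, 4 or 5 (edgeR adjusted p = 0.0702, 0.0655 and 0.0675), without ICH replicate 1 or 2 (0.0504 and 0.114), and with the replicate number as a block (0.0668). The direction was the same in all 18 alternatives, with log2 fold changes from 0.15 to 0.26. Fits without an ICH_MA library are among these and could hardly move this value (0.207 without ICH_MA replicate 1).

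Vegfa, the target gene with 3 core matches in its first window, was at 102, 93.0, 87.6, 99.7 and 95.6 CPM in Sham replicates 1 to 5. In ICH replicates 1, 2 and 5 it was at 73.7, 90.4 and 95.6 CPM. ICH replicate 1 was the lowest of all 11 libraries, and the other two lay within the Sham range. The means were 95.5 ± 5.63 CPM in Sham (SD, n = 5) and 86.5 ± 11.4 CPM in ICH (SD, n = 3). The log2 difference was −0.14 (SE 0.097, edgeR adjusted p = 0.311). The 95% interval of the fold ran from 0.782 to 1.05, which holds a fall, no change and a small rise, so these could not be told apart. Without ICH replicate 1 the log2 fold change was −0.039 (edgeR adjusted p = 0.819), and without ICH replicate 5 it was −0.22 (adjusted p = 0.144). These were the ends of the range over the 18 alternatives. The counts are per gene and do not separate the splice forms of Vegfa.

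Myc had the lowest counts, 141 to 297 in Sham and 434 to 758 in ICH, so counting error alone was 3.63% to 8.42% of a library's value. It was at 3.83, 3.69, 3.38, 4.56 and 2.57 CPM in Sham replicates 1 to 5. In ICH replicates 1, 2 and 5 it was at 12.7, 10.01 and 6.57 CPM. All 3 ICH libraries were above all 5 Sham libraries, and they differed among themselves by more than counting error. The means were 3.61 ± 0.723 CPM in Sham (SD, n = 5) and 9.76 ± 3.07 CPM in ICH (SD, n = 3). The rise came to 1.43 on the log2 scale (SE 0.21, 95% interval 0.97 to 1.90, edgeR adjusted p = 0.00106). A rise as large or larger was found in 3.31% of the genes tested, 495 genes. The call held in all 18 alternatives, with log2 fold changes from 1.20 without ICH replicate 1 to 1.65 without ICH replicate 5.

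The second comparison asked how mithramycin A changed these transcripts after hemorrhage, in a contrast that uses the same ICH libraries as the first. None of the 4 genes passed with edgeR, DESeq2 or limma-voom (0 of 4 each), where 0% of all genes passed with edgeR and limma-voom and 3.19% with DESeq2. At an unadjusted p under 0.05, edgeR gave 2 of the 4, Myc and Hif1a, both lower in ICH_MA, where 9.26% of all genes were lower by the same measure. For these 2 genes every ICH_MA library was below every ICH library, which was so for 9.14% of all genes. The median log2 fold change of the 4 was −0.18, against −0.018 over all genes tested, with values from −0.71 for Myc to 0.12 for Vegfa.

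Myc was at 6.45, 6.08 and 5.34 CPM in ICH_MA replicates 1, 2 and 3. The highest of these lay just under the 6.57 CPM of ICH replicate 5, and the ICH_MA libraries were close together where the ICH libraries were not. The mean was 5.96 ± 0.561 CPM in ICH_MA (SD, n = 3), and the log2 difference from ICH was −0.71 (SE 0.24, edgeR adjusted p = 0.226, unadjusted p = 0.0133). The 95% interval of the fold for this gene alone, not adjusted for the number of genes, was 0.422 to 0.883. Without ICH replicate 5 the log2 fold change was −0.93 and passed (edgeR adjusted p = 0.0276), in a fit where 7.59% of all genes passed. Leaving out the ICH library nearest to ICH_MA had to enlarge this difference. Without ICH replicate 1 the log2 fold change was −0.48 (edgeR adjusted p = 0.616). In the other 16 alternatives it did not pass either.

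Hif1a was at 110, 117 and 119 CPM in ICH_MA replicates 1, 2 and 3. All 3 values lay below the ICH libraries, with replicates 1 and 2 within the Sham range and replicate 3 just above it. The mean was 116 ± 4.78 CPM (SD, n = 3), and the log2 difference from ICH was −0.16 (SE 0.065, edgeR adjusted p = 0.28, unadjusted p = 0.0328). The per-gene 95% interval of the fold was 0.812 to 0.989. No alternative put it past the threshold (adjusted p from 0.124 to 0.564), and the log2 fold change ranged from −0.20 with the replicate block to −0.10 without ICH replicate 2.

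Sp1, the factor whose DNA binding the drug blocks, was at 37.3, 36.03 and 39.6 CPM in ICH_MA replicates 1, 2 and 3. All 3 lay between ICH replicate 5 and the other ICH libraries, so the groups overlapped. The mean was 37.7 ± 1.82 CPM (SD, n = 3), and the log2 difference from ICH was −0.21 (SE 0.13, edgeR adjusted p = 0.461). The per-gene 95% interval of the fold was 0.712 to 1.05, which holds both no change and a fall, and does not show that the levels were equal. Without ICH replicate 5 the log2 fold change was −0.34 (edgeR adjusted p = 0.0781), and without ICH replicate 2 it was −0.11 (adjusted p = 0.752).

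Vegfa was at 88.2, 108 and 86.3 CPM in ICH_MA replicates 1, 2 and 3. Replicate 2 was the highest of all 11 libraries, and the other two lay within the ICH range. The mean was 94.2 ± 12.05 CPM (SD, n = 3), and the log2 difference from ICH was 0.12 (SE 0.11, edgeR adjusted p = 0.622). The per-gene 95% interval of the fold was 0.923 to 1.28, which holds a small fall, no change and a rise, so these could not be told apart. The size rested on single libraries: without ICH replicate 1 or ICH_MA replicate 2 the log2 fold change was 0.019 and 0.012, and without ICH replicate 5 it was 0.20 (edgeR adjusted p = 0.329).

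**Figure D3:**
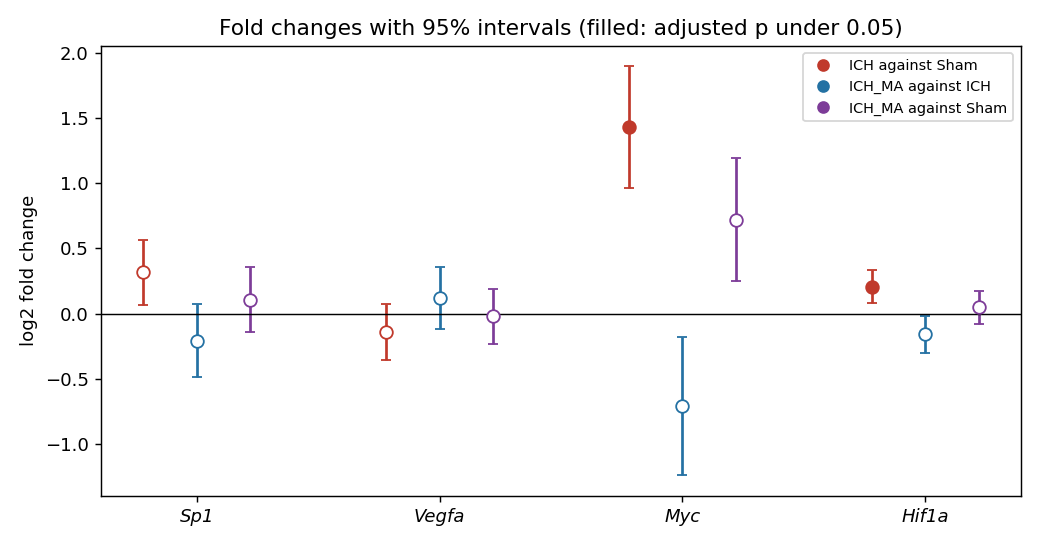
Log2 fold change (y axis) of each gene (x axis) in the 3 comparisons, with per-gene 95% intervals from the edgeR test; filled points have an adjusted p under 0.05. Only Myc and Hif1a in ICH against Sham are filled, at 1.43 and 0.21, and the interval for Myc is the widest in each comparison.

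The third comparison set treated rats against the Sham group. None of the 4 genes passed with edgeR (0 of 4, where 6.67% of all genes passed) or limma-voom (0 of 4, 5.04%), and DESeq2 called Myc (1 of 4, where 12.2% of all genes passed). At an unadjusted p under 0.05 edgeR gave Myc alone, higher in ICH_MA as were 12.7% of all genes. For Myc every ICH_MA library was above every Sham library, as for 11.8% of all genes. Its log2 difference was 0.72 (SE 0.22, per-gene 95% interval 0.25 to 1.19, edgeR adjusted p = 0.0706). It passed with DESeq2 (adjusted p = 0.0216), with edgeR on the compared groups alone (adjusted p = 0.0299, 10.3% of all genes called) and with edgeR without ICH replicate 5 (adjusted p = 0.0248, 10.5% called). That library enters this comparison through the spread and filter common to all groups. Over the 18 alternatives its adjusted p ranged from 0.0216 to 0.198.

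For Sp1, Hif1a and Vegfa no difference between treated rats and Sham passed. Log2 differences from Sham were 0.11 (SE 0.11) for Sp1 (edgeR adjusted p = 0.638), 0.048 (SE 0.058) for Hif1a (adjusted p = 0.686) and −0.021 (SE 0.097) for Vegfa (adjusted p = 0.931). Per-gene 95% intervals of the fold were 0.905 to 1.28 for Sp1, 0.947 to 1.13 for Hif1a and 0.851 to 1.14 for Vegfa. The values of Sp1 (1.24-fold) and Vegfa (0.906-fold) in ICH against Sham did not pass and lie inside these intervals. A return to the Sham level is thus not shown for them. The 1.15-fold value of Hif1a in ICH against Sham lies above its interval, but ICH_MA against ICH did not pass for Hif1a. Over the 18 alternatives the log2 differences ranged from 0.067 to 0.15 for Sp1, 0.016 to 0.089 for Hif1a and −0.13 to 0.039 for Vegfa. The sign for Vegfa turned positive in 4 of 18 alternatives, library totals in place of TMM among them. The order of the group means was Sham, ICH_MA, ICH from low to high for Sp1, Hif1a and Myc, and the reverse for Vegfa. No neighbours in that order were separated by the edgeR test, since ICH_MA passed against neither Sham nor ICH for any of the 4 genes. Because the contrasts have groups in common, a high or low ICH library moves both differences from ICH.

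**Figure D4:**
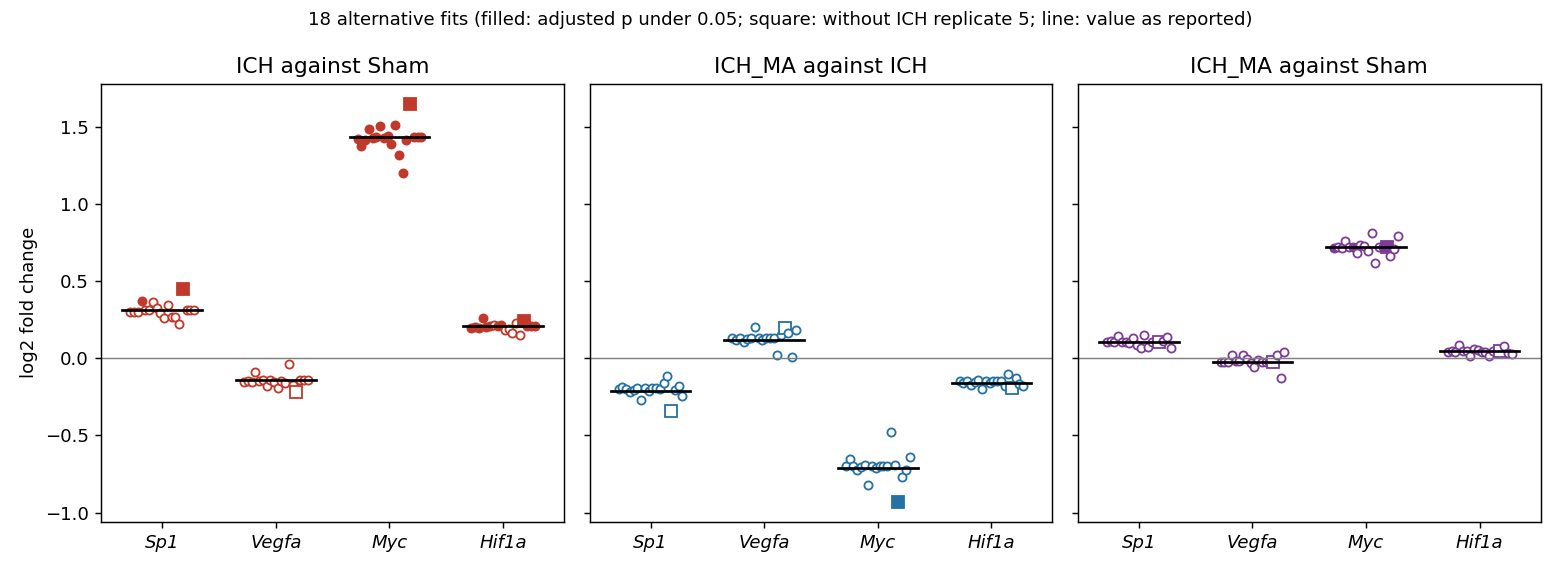
Log2 fold change (y axis) of each gene (x axis) in the 3 comparisons under 18 alternative fits, filled where the adjusted p was under 0.05, with a square for the fit without ICH replicate 5 and a line at the value as reported. In ICH against Sham all 18 points for Myc are filled, and in ICH_MA against ICH the only filled point is Myc without ICH replicate 5, at −0.93.

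Likeness of profiles was measured as the root mean square difference between mean-centred log2 CPM values over the 11 libraries, in log2 units. Among the 4 genes, Sp1 and Hif1a were nearest to each other at 0.130, where 1.81% of all genes tested were nearer to Sp1 than Hif1a was and 16.9% were nearer to Hif1a than Sp1 was. Hif1a and Vegfa stood at 0.196, with 48.3% of genes nearer to Hif1a and 41.0% nearer to Vegfa. Myc and Sp1 stood at 0.500, with 10.1% of genes nearer to Myc and 89.0% nearer to Sp1. Genes of small change lie near one another by this measure, so it describes size as well as shape. The gene nearest to Sp1 was ENSRNOG00000010477 at 0.0695, with 23.7, 27.6 and 25.5 CPM on average in Sham, ICH and ICH_MA. The gene nearest to Vegfa was ENSRNOG00000014801 at 0.0681, with 17.5, 15.8 and 17.4 CPM. The gene nearest to Myc was ENSRNOG00000019179 at 0.119, with 5.09, 13.7 and 8.80 CPM. Its log2 fold change in ICH against Sham was 1.43. These genes were picked by likeness over the same libraries, so changes like those of the described genes follow from the choice. No names could be given to these IDs.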

How the data were processed

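RNA-seq counts of 11 rat brain libraries (5 Sham, 3 ICH, 3 ICH_MA) were used. The authors deposited whole-number counts per gene, not normalized, for 15094 genes. Per the submitters' processing notes, Bowtie2, RSEM 1.3.1 and DESeq2 1.4.5 were used, and the build was mRatBN7.2. The sources used here do not give the role of each tool, the annotation, the strand setting, any rounding of RSEM estimates or filters, so reads of overlapping or antisense genes may be shared. Columns were matched to samples by library name.

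Genes were filtered with filterByExpr (minimum count 10, minimum total 15), leaving 14963, all 4 described genes included. Counts were TMM-scaled, and edgeR 4.0.16 (R 4.3.3) was run over all 11 libraries with a mean per group. Its quasi-likelihood F test gave the p-values, which were Benjamini-Hochberg adjusted over all genes tested, with 0.05 as threshold. Standard errors and 95% intervals came from the F statistic and its degrees of freedom, and the prior count of log2 CPM was 2. DESeq2 1.42.0, limma-voom (limma 3.58.1), other scalings, no filter, fewer groups, a replicate block and leaving out each library were tried. A library left out of a group not compared acts only through the common spread, scaling and filter. Such fits hardly move a fold change and are no check of its direction. No test was run on the promoter windows.

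The genes, lists and tests were chosen with earlier results of these data known. The genes described were all 4, and for each the nearest profile, held to 2 IDs higher and 2 lower in ICH and taken in the order Sp1, Vegfa, Myc, Hif1a. Pathway and cell type lists hold symbols, and 0 of 15094 IDs matched a symbol in the reference table of 47357 genes, so they were left out.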

Additional observations from a re-analysis of the deposited data

How the results depend on the processing

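Over 18 alternatives, Myc in ICH against Sham passed in all 18, and Vegfa in no alternative of any comparison. With library totals alone, Sp1 in ICH against Sham passed at a log2 fold change of 0.37 and Vegfa in ICH_MA against Sham turned to 0.018. The share of rises among genes called in ICH against Sham was then 75.7%, against 61.4% with TMM. Myc in ICH_MA against Sham passed at 0.72 with DESeq2 and at 0.72 on the compared groups alone. Leaving out 1 library gave log2 fold changes of 0.22 to 0.45 for Sp1 and 0.15 to 0.24 for Hif1a in ICH against Sham, −0.93 to −0.48 for Myc in ICH_MA against ICH, and 0.62 to 0.81 for Myc and −0.13 to 0.039 for Vegfa in ICH_MA against Sham. The cause of these moves was not tested.

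Same-numbered libraries did not deviate together (correlation across genes −0.156 to 0.0853 in 8 pairs, 0 over 0.1, and the own number gave the highest correlation in 2 of 16 cases), so the numbers were not taken as pairs. With the replicate number as a block, Hif1a in ICH against Sham missed the threshold at a log2 fold change of 0.22, Vegfa in ICH_MA against Sham was at 0.022, and 1914 genes were called in ICH against Sham, with 117 for ICH_MA against Sham. It changed no other call for these genes.

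The genes called numbered 3662 in ICH against Sham (1992 to 4484 with 1 library left out, the lowest without ICH replicate 1, and 2231 without ICH replicate 2), 0 in ICH_MA against ICH (477 with DESeq2, 0 to 1137 with 1 library left out, the highest without ICH replicate 5) and 998 in ICH_MA against Sham (1830 with DESeq2, 1541 on the compared groups alone, 348 to 1575 with 1 library left out: 348 to 577 without 1 of the ICH_MA libraries or 1 of Sham replicates 2 to 5, and 1575 without ICH replicate 5). The 2 core GC-box matches of Hif1a became 0 in the bases before the start and 0 with the longer letters. Counting error was at most 8.42% of a library's value for Myc and 2.39% for the other genes.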

Other observations

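Spread between libraries differed by group as well as by gene. For Myc the SD of log2 CPM was 0.30 in Sham, 0.48 in ICH and 0.14 in ICH_MA, where the median over all genes tested was 0.13, 0.15 and 0.11. In ICH, 89.8% of genes varied less than Myc and 73.8% less than Sp1, whose SDs were 0.16, 0.26 and 0.069. Hif1a varied less than the median gene in all 3 groups, with SDs of 0.074, 0.093 and 0.060. Vegfa had SDs of 0.086, 0.20 and 0.18. These SDs rest on 3 to 5 libraries and the differences between groups were not tested.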
